A study of Arabidopsis thaliana with 8 samples.

Results

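The 9 genes described here are the phosphate sensing and uptake genes of Arabidopsis thaliana: the SPX-domain sensors SPX1 (AT5G20150), SPX2 (AT2G26660) and SPX3 (AT2G45130), the transcription factor PHR1 (AT4G28610), the ubiquitin-conjugating enzyme PHO2 (AT2G33770), the phosphate transporters PHT1;1 (AT5G43350), PHT1;2 (AT5G43370) and PHT1;4 (AT2G38940), and the acid phosphatase PAP17 (AT3G17790). They were chosen by locus from the known phosphate pathway and not by a threshold on these values, but earlier results of these data were known when they were chosen. All 9 are among the 32548 genes of the expression table, and all 9 passed the filter on low values that left 25459 genes for testing.

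Plants read their phosphate status inside the cell. When phosphate is ample, inositol pyrophosphates bind the SPX domain, and the SPX proteins then hold PHR1, a MYB factor that otherwise binds the P1BS element in front of phosphate starvation genes. When phosphate is scarce PHR1 is released, and its targets include genes for the SPX proteins themselves, for PHT1 transporters, for acid phosphatases, for the microRNA miR399 and for the RNAs IPS1 and AT4. miR399 directs cleavage of the PHO2 transcript, whose product marks PHT1 transporters and the root exporter PHO1 for breakdown, while IPS1 and AT4 bind miR399 without being cut and so shield PHO2.

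RNA-seq had been done on seedlings of 4 genotypes with 2 libraries each: hag1, ada2b and the double mutant scs1 scs2a, which the labels give as hag1-/-, ada2b-/- and scs1-/- scs2a-/-, and wild type Col-0. The series is about SAGA, a complex that modifies histones at transcribed genes. HAG1, also called GCN5, is its histone acetyltransferase and ADA2B an adaptor that acts with HAG1. All groups were 12-day-old seedlings grown on Murashige and Skoog plates at 22 °C with 16 h of light and 8 h of dark, and no label names a treatment that withholds phosphate. The sources used here do not give the mutant alleles. No label says whether the 2 libraries of a genotype came from separate plates, so the p-values reflect the variation between these libraries only, and that variation may be technical.

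Library totals ran from 20570967 normalised counts in scs1 scs2a to 22344725 in wild type. These are totals after normalisation and do not give the sequencing depth. HAG1 was at 131 and 133 in hag1 and 296 and 328 in wild type, a log2 fold change of -1.23 ± 0.09 (adjusted p = 2.92e-05). ADA2B was at 567 and 613 in ada2b and 708 and 712 in wild type, a change of -0.27 ± 0.07 (adjusted p = 0.0136) that missed the test with either wild type library left out (adjusted p of 0.0516 for replicate 1 and 0.0567 for replicate 2) or ada2b replicate 1 (0.0886). Much of the ADA2B transcript was still counted in ada2b, and without the position of the mutation this checks the label only weakly. SCS1 and SCS2A were not analysed here. The seedling label was checked with 13 markers of green tissue and 22 of root, none of which was under 1 in any library. The summed green markers took 3.06 to 3.23% of the library in hag1, 3.75 to 3.83% in ada2b, 3.58 to 3.97% in scs1 scs2a and 4.66 to 4.75% in wild type. The summed root markers took 0.318 to 0.414% in hag1, 0.248 to 0.262% in ada2b, 0.295 to 0.297% in scs1 scs2a and 0.22 to 0.224% in wild type, but PYK10 alone makes up most of this sum. With equal weight for the 22 root markers, the mean log2 level was 7.73 and 7.23 in hag1, 7.33 and 7.25 in ada2b, 7.65 and 7.71 in scs1 scs2a and 7.51 and 7.62 in wild type. Thus ada2b lay below wild type, scs1 scs2a lay above it and the hag1 libraries lay on both sides of it. In these whole-seedling samples a change in the number of cells of a type cannot be told apart from a change of RNA per cell.

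The promoters of SPX1, SPX3 and PHT1;4 are printed because these genes were all higher in hag1 and they hold the element that PHR1 binds. Each runs from 250 bases before to 50 bases after the start of the annotated gene, 5′ to 3′ on the strand of the gene, read from the RefSeq genome of build TAIR10.1 by locus (the submitters' notes name TAIR10). Capitals mark the P1BS element, searched as GNATATNC, which reads the same on both strands.
SPX1, chr5:6802032-6802331, plus strand: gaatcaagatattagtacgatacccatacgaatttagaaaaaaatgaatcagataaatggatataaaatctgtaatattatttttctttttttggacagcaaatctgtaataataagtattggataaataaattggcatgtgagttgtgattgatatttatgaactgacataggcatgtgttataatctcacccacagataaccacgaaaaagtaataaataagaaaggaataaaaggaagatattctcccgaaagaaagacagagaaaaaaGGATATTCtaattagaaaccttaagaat
SPX3, chr2:18606160-18606459, plus strand: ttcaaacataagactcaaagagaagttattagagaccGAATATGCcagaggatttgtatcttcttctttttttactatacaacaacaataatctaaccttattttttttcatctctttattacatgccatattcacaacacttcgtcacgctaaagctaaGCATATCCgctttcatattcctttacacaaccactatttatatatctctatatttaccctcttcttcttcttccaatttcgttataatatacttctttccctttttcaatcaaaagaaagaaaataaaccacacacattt
PHT1;4, chr2:16256907-16257206, plus strand: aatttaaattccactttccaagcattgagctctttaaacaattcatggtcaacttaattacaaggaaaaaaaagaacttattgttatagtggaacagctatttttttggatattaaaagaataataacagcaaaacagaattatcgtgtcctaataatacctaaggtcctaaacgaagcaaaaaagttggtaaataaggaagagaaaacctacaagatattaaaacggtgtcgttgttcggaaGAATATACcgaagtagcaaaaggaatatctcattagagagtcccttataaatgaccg
With the first base of the gene as 1 and the base before it as -1, the element begins at 23 in SPX1, at -213 and -90 in SPX3 and at -7 in PHT1;4. PHT1;2 has one at -42 in the same window. Thus 4 of the 9 promoters (44.4%) hold the element in these 300 bases, as do 17 of the 55 other phosphate genes listed below (30.9%) and 2029 of the 32546 promoters of all genes (6.23%). With 1000 bases upstream in place of 250 the counts were 6 of 9 (66.7%), 31 of 55 (56.4%) and 6770 of 32546 (20.8%). PHT1;1 then has a pair at -786 and -768 and PHO2 one at -526, and SPX1 and PHT1;2 gain one each, at -735 and -569. No match was found in either window for SPX2, PHR1 and PAP17. Of these, SPX2 (1.22) and PAP17 (1.62) were also higher in hag1 than in wild type, by log2 fold change. PHT1;2 has matches but was not called in hag1 (-0.36, adjusted p = 0.569). Whether the matches bear on the changes was not tested. A match describes the sequence and is not a measured binding site.

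**Figure D1:**
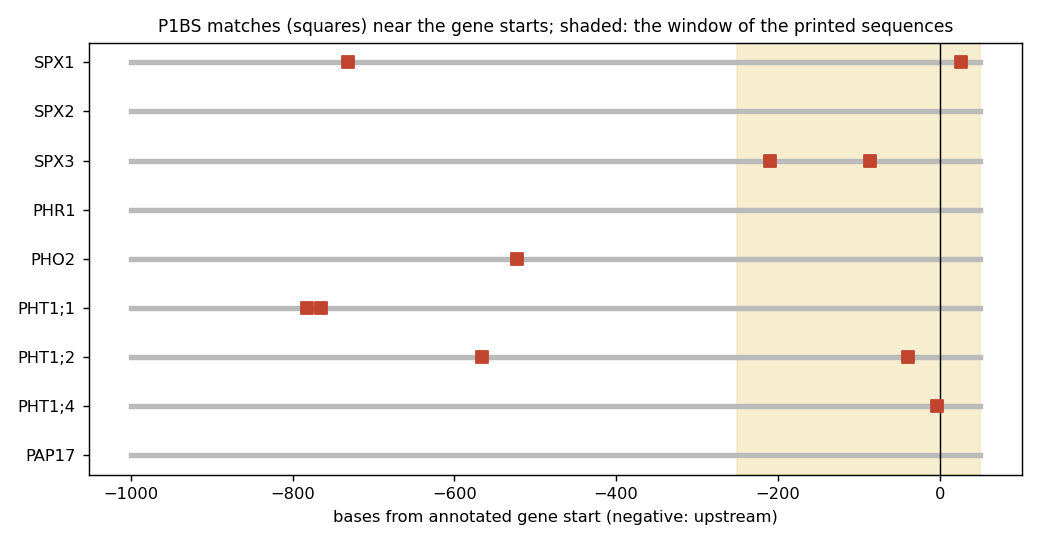
P1BS matches (squares, drawn larger than the element itself) near the 9 genes; the x axis is the distance in bases from the annotated gene start and the shaded part is the 300-base window. Matches lie inside the shaded window for SPX1, SPX3, PHT1;2 and PHT1;4. SPX1 and PHT1;2 have a further match upstream of it, and PHT1;1 and PHO2 have matches upstream of it alone.

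The PHO2 transcript and its regulators meet at a short match to miR399, and these sites are printed because the PHO2, IPS1 and AT4 levels below bear on that step. The mature miR399b from the RefSeq annotation of TAIR10.1, which has the same letters as miR399c-3p, is shown with its seed (bases 2 to 8) in capitals, and the same seed is carried by miR399a, miR399d, miR399e and miR399f. In the sites below it, capitals mark bases that pair with miR399b by Watson-Crick rules.
miR399b: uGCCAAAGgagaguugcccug
PHO2 site 1, chr2:14282106-14282126, minus strand: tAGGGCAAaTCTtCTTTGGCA
PHO2 site 2, chr2:14281973-14281993, minus strand: tAGGGCAtaTCTCCTTTGGCA
PHO2 site 3, chr2:14281884-14281904, minus strand: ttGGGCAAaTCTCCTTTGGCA
PHO2 site 4, chr2:14281827-14281847, minus strand: tcGaGCAAaTCTCCTTTGGCA
PHO2 site 5, chr2:14281770-14281790, minus strand: tAGaGCAAaTCTCCTTTGGCA
IPS1, chr3:3051224-3051247, plus strand: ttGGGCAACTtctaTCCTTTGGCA
AT4, chr5:895149-895172, plus strand: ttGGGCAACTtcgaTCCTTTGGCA
All 5 PHO2 sites lie in an exon before the coding sequence, with 17 or 18 of 21 bases paired, and each pairs with the whole seed. The IPS1 and AT4 sites pair at 18 bases and hold 3 extra bases in the middle, which is the known form of a target mimic.

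In hag1, 6 of the 9 genes rose against wild type and 0 fell, where a call is an adjusted p under 0.05 by limma with Benjamini-Hochberg adjustment over all 25459 genes. Of all genes tested, 21.3% rose and 23% fell in that comparison. The median log2 fold change of the 9 was 1.22, and that of all genes was -0.0022. In ada2b 5 of the 9 were higher and 1 lower (24.7% and 23.4% of all genes, median 0.23 against 0.0332 over all genes). In scs1 scs2a 3 were higher and 0 lower (7.86% and 12.1% of all genes, median 0.32 against 0 over all genes). The 3 comparisons share their wild type libraries. The count in ada2b was 3 without wild type replicate 1, and the count in scs1 scs2a was 1 without scs1 scs2a replicate 2 and 5 without scs1 scs2a replicate 1.

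**Figure D2:**
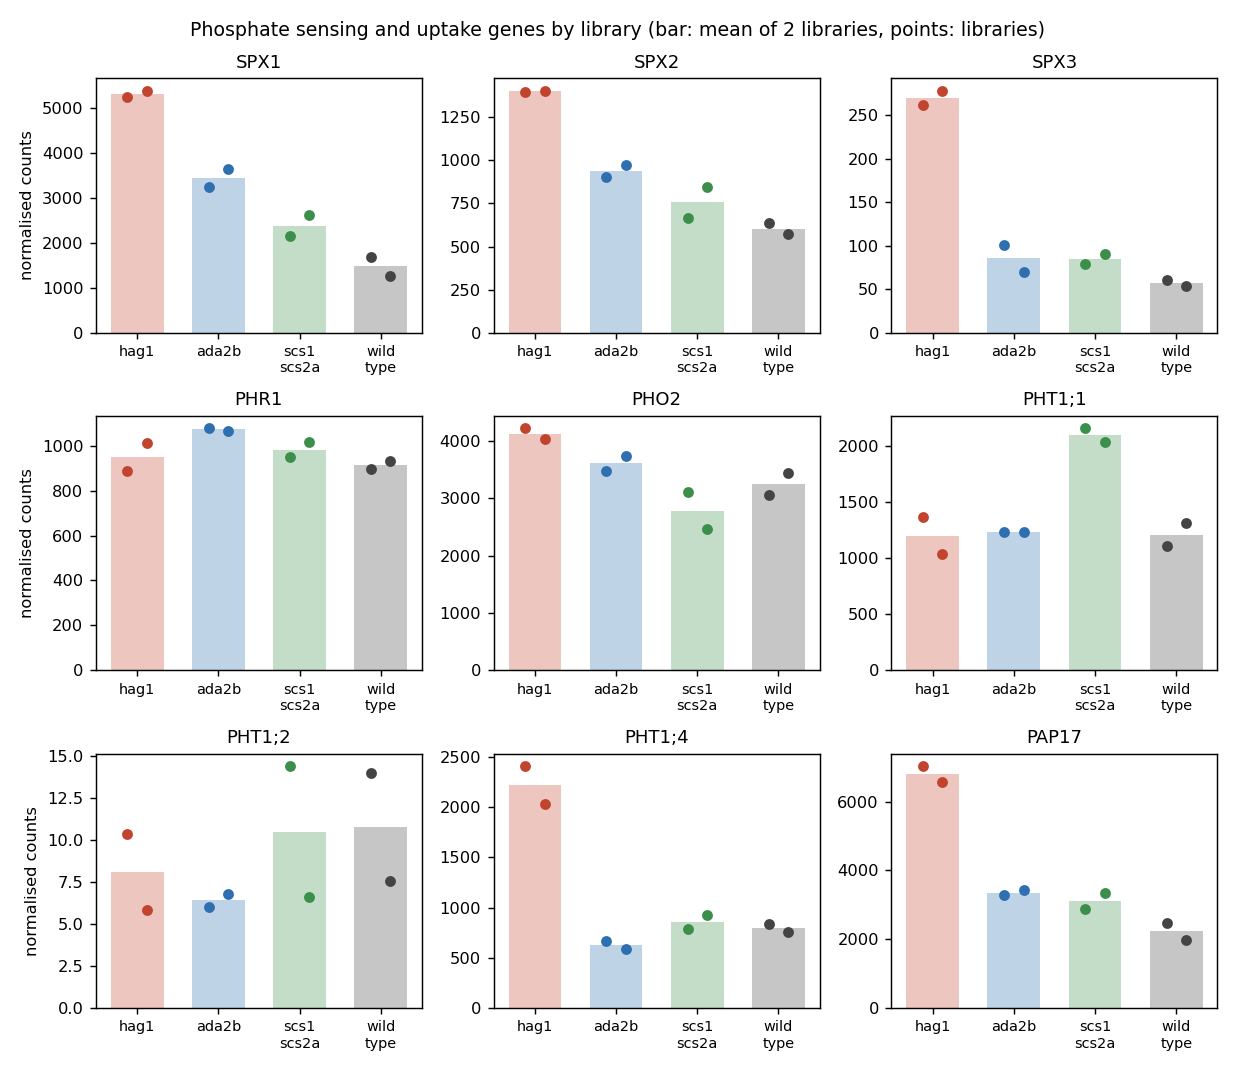
Normalised counts (y axis, from 0, scaled per panel) of the 9 genes in hag1, ada2b, scs1 scs2a and wild type; points are single libraries and bars the mean of 2. Both hag1 libraries lie above all 6 others for SPX1, SPX2, SPX3, PHT1;4, PAP17 and PHO2, and both scs1 scs2a libraries lie above all others for PHT1;1.

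The SPX genes code for small nuclear or cytosolic proteins that sense phosphate and restrain PHR1. SPX1 had 5249.5 and 5388 in the hag1 libraries, 3233 and 3638 in ada2b, 2148 and 2608 in scs1 scs2a and 1677 and 1267 in wild type (normalised counts, here and below). No library of one genotype overlapped another, and the order was hag1, ada2b, scs1 scs2a, wild type. The log2 fold changes against wild type were 1.87 ± 0.13 (adjusted p = 2.68e-05) in hag1 and 1.23 ± 0.13 (adjusted p = 0.000166) in ada2b, with 0.70 ± 0.13 (adjusted p = 0.00894) in scs1 scs2a (± SE, on the log2(value + 1) scale). Each neighbouring pair in that order also differed, with -0.63 for ada2b against hag1 (adjusted p = 0.00574) and -0.54 for scs1 scs2a against ada2b (adjusted p = 0.0189). The call of scs1 scs2a against wild type was lost without scs1 scs2a replicate 2 (0.56, adjusted p = 0.0818), and that of scs1 scs2a against ada2b without scs1 scs2a replicate 1 (-0.40, adjusted p = 0.124) or ada2b replicate 2 (-0.45, adjusted p = 0.11).

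SPX2, the closest relative of SPX1 among the sensors, had 1395 and 1406 in the hag1 libraries, 901 and 973 in ada2b, 668 and 847 in scs1 scs2a and 636 and 570.0 in wild type. Its means followed the order of SPX1 with smaller steps, but scs1 scs2a against ada2b was not called (-0.32, adjusted p = 0.0572). SPX2 rose by 1.22 ± 0.11 (adjusted p = 6.49e-05) in hag1 and 0.64 ± 0.11 (adjusted p = 0.00162) in ada2b, and the log2 difference of ada2b from hag1 was -0.58 (adjusted p = 0.00305). In scs1 scs2a it was 0.32 ± 0.11 against wild type, which did not pass the test (adjusted p = 0.07) but did without scs1 scs2a replicate 1 (0.49, adjusted p = 0.0168). SPX2 ran at 0.266 and 0.261 of the SPX1 value in hag1, 0.279 and 0.268 in ada2b, 0.311 and 0.325 in scs1 scs2a, and 0.379 and 0.45 in wild type.

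SPX3, a sensor known for strong induction when phosphate is scarce, had the lowest values of the 3, with 262 and 278 in the hag1 libraries, 101 and 69.9 in ada2b, 79.4 and 90.6 in scs1 scs2a and 60.8 and 53.4 in wild type. Its rise in hag1, 2.22 ± 0.19 (adjusted p = 5.54e-05), was the largest log2 fold change among the 9 genes in any comparison with wild type. The hag1 libraries stood apart, while ada2b and scs1 scs2a overlapped each other (difference 0.01, adjusted p = 0.984). Against hag1 the log2 difference was -1.67 in ada2b (adjusted p = 0.000271) and -1.66 in scs1 scs2a (adjusted p = 0.000571). Against wild type the ada2b value of 0.55 ± 0.19 (adjusted p = 0.0401) passed the test, but it missed it in 11 of the 17 alternatives, at 0.29 without ada2b replicate 1 (adjusted p = 0.245) and 0.46 without wild type replicate 2 (adjusted p = 0.154). The call was also missed without each of the other libraries except ada2b replicate 2. The scs1 scs2a value of 0.57 ± 0.19 missed it (adjusted p = 0.0708) and passed with either ada2b replicate left out, with adjusted p of 0.0391 without replicate 1 and 0.0373 without replicate 2. SPX4, another sensor of the family that is not known for induction by starvation, had 145 and 123 in the hag1 libraries, 148 and 175 in ada2b, 137 and 133 in scs1 scs2a and 135 and 124 in wild type and was not called in any mutant against wild type.

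PHR1, the factor that the SPX proteins hold, varied little. It had 886 and 1015 in the hag1 libraries, 1079 and 1068 in ada2b, 949 and 1017 in scs1 scs2a and 897 and 932 in wild type. The hag1 libraries overlapped wild type (0.05 ± 0.07, adjusted p = 0.599) and scs1 scs2a was at 0.10 ± 0.07 (adjusted p = 0.364). In ada2b PHR1 was above wild type in both libraries, by 0.23 ± 0.07 (adjusted p = 0.0296). That call was lost on leaving out wild type replicate 1 (0.20, adjusted p = 0.124) or 2 (0.26, adjusted p = 0.0615) and ada2b replicate 1 (0.22, adjusted p = 0.108) or 2 (0.24, adjusted p = 0.0908), and with median-ratio (0.18, adjusted p = 0.0768) or upper-quartile scaling (0.18, adjusted p = 0.071). AT4G28600, which overlaps the end of PHR1 by 59 bases on the opposite strand, was itself higher by 0.20 in ada2b (adjusted p = 0.0321), and the sources used here do not say whether reads were counted by strand. PHL1, the close homologue of PHR1, had 355 and 369 in the hag1 libraries, 396 and 467 in ada2b, 357 and 358 in scs1 scs2a and 346 and 353 in wild type and rose in ada2b by 0.30 ± 0.09 (adjusted p = 0.0222), a call lost without wild type 1, wild type 2 or ada2b 2 (0.18 to 0.32), with 0.05 (adjusted p = 0.687) in hag1 and 0.03 (adjusted p = 0.827) in scs1 scs2a.

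PHO2 carries the step from miR399 to the transporters. It had 4227 and 4029 in the hag1 libraries, 3474 and 3746 in ada2b, 3104 and 2470.2 in scs1 scs2a and 3066 and 3439 in wild type. The hag1 libraries were above all others and the scs1 scs2a libraries spread widely, 1 of them inside the wild type range. PHO2 was higher in hag1 than in wild type by 0.35 ± 0.10 (adjusted p = 0.026), a call lost without wild type replicate 1 (0.26, adjusted p = 0.135), hag1 replicate 1 (0.31, adjusted p = 0.118) or hag1 replicate 2 (0.38, adjusted p = 0.063). It was not called in ada2b (0.15 ± 0.10, adjusted p = 0.262) or in scs1 scs2a (-0.23 ± 0.10, adjusted p = 0.16), though without scs1 scs2a replicate 1 the value in scs1 scs2a was -0.39 (adjusted p = 0.0322). Between mutants, the log2 difference of scs1 scs2a from hag1 was -0.58 (adjusted p = 0.00451). That of scs1 scs2a from ada2b was -0.38 (adjusted p = 0.0262), a call lost without ada2b replicate 1 (-0.44, adjusted p = 0.0622), ada2b replicate 2 (-0.33, adjusted p = 0.134) or scs1 scs2a replicate 2 (-0.22, adjusted p = 0.133).

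Beside PHO2 stand the RNAs that bind or carry miR399. AT4, a miR399 mimic, had 2093 and 2209.7 in the hag1 libraries, 501 and 443 in ada2b, 885 and 1079 in scs1 scs2a and 1119 and 943 in wild type. It rose in hag1 by 1.07 ± 0.11 (adjusted p = 0.000157) and fell in ada2b by 1.12 (adjusted p = 0.000115), while scs1 scs2a overlapped wild type (-0.07, adjusted p = 0.699). The direct difference of ada2b from hag1 was -2.19 ± 0.11 (adjusted p = 1e-05). IPS1, the better known mimic of the pair, had 117 and 188 in the hag1 libraries, 109 and 77.7 in ada2b, 216 and 287 in scs1 scs2a and 133 and 185 in wild type. Its wild type libraries lay inside the range of the hag1 libraries, its value in ada2b was -0.76 ± 0.27 (adjusted p = 0.0467), a call lost without wild type 2, ada2b 2, scs1 scs2a 1 or scs1 scs2a 2 (-0.52 to -0.76), and it was not called in scs1 scs2a (0.66 ± 0.27, adjusted p = 0.127). The miR399 precursors gave almost no reads: MIR399A, MIR399B, MIR399E and MIR399F did not pass the filter, and MIR399C and MIR399D stayed at or under 4.15 in every library and were not called. The precursor of miR827, a microRNA that targets the ubiquitin ligase gene NLA, had 18.7 and 15.7 in the hag1 libraries, 8.01 and 2.89 in ada2b, 2.88 and 1.89 in scs1 scs2a and 2.16 and 1.09 in wild type. It rose in hag1 by 2.82 ± 0.48 (adjusted p = 0.00176), and was not called in ada2b (1.20, adjusted p = 0.0692) or scs1 scs2a (0.38, adjusted p = 0.621). NLA, whose product works with PHO2 on the PHT1 transporters, was itself higher in hag1 by 1.08 ± 0.10 (adjusted p = 7.13e-05). The label gives total RNA as the source, the reads fall on precursors, and mature miRNAs were not measured.

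The PHT1 proteins are the proton-coupled phosphate importers of the plasma membrane, most active in the outer cells of the root. PHT1;4 and PHT1;1 changed in different mutants. PHT1;4 had 2416 and 2032 in the hag1 libraries, 667 and 582 in ada2b, 784 and 925 in scs1 scs2a and 836 and 757 in wild type. Both hag1 libraries were more than 2-fold above every other library, ada2b lay below all of them, and scs1 scs2a overlapped wild type. PHT1;4 rose in hag1 by 1.48 ± 0.11 (adjusted p = 3.44e-05), and its log2 difference from hag1 was -1.83 in ada2b (adjusted p = 2.04e-05) and -1.38 in scs1 scs2a (adjusted p = 0.000142). In ada2b it fell against wild type by 0.35 ± 0.11 (adjusted p = 0.0316), a call lost without wild type replicate 1 (-0.28, adjusted p = 0.143) or ada2b replicate 2 (-0.25, adjusted p = 0.181). It was the only one of the 9 genes called lower against wild type in any mutant. In scs1 scs2a the value was 0.10 ± 0.11 (adjusted p = 0.583), above ada2b by 0.45 (adjusted p = 0.0192), which was lost without ada2b replicate 2 (0.35, adjusted p = 0.116) or scs1 scs2a replicate 2 (0.33, adjusted p = 0.125).

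PHT1;1 had 1362 and 1037 in the hag1 libraries, 1230.3 and 1227 in ada2b, 2157 and 2037 in scs1 scs2a and 1109.7 and 1307 in wild type. Only the scs1 scs2a libraries stood apart. PHT1;1 rose in scs1 scs2a by 0.80 ± 0.12 (adjusted p = 0.00358) and was above hag1 by 0.82 (adjusted p = 0.00193) and above ada2b by 0.77 (adjusted p = 0.00292). These 3 calls held in all 17 alternatives. Against wild type hag1 was at -0.02 ± 0.12 (adjusted p = 0.918) and ada2b at 0.03 ± 0.12 (adjusted p = 0.866), the last at -0.02 with median-ratio or upper-quartile scaling. The ratio of PHT1;4 to PHT1;1 within a library was 1.77 and 1.96 in hag1, 0.542 and 0.474 in ada2b, 0.364 and 0.454 in scs1 scs2a, and 0.753 and 0.579 in wild type. The root hair markers EXPA18 (1.06, adjusted p = 0.0272), EXPA7 (0.90, adjusted p = 0.0275) and PRP3 (0.98, adjusted p = 0.0101) also rose in scs1 scs2a, while COBL9 (0.72), RSL4 (0.72), RHD6 (0.48) and RHD2 (0.36) were not called. For each of these markers, called or not, both scs1 scs2a libraries lay above both wild type libraries. EXPA7 (0.69, adjusted p = 0.0347) and PRP3 (0.54, adjusted p = 0.0457) were called higher in ada2b too. The means of EXPA18, EXPA7 and PRP3 were 214, 184 and 1223 in scs1 scs2a and 156, 162 and 911 in ada2b. These differences did not pass the test (adjusted p of 0.238, 0.539 and 0.125), which with 2 libraries per genotype does not show equal levels. Leaving out 1 library at a time (with the log2 fold change without it) ended the calls of EXPA18 (0.81 to 1.21, without wild type 1, scs1 scs2a 1 or scs1 scs2a 2), EXPA7 (0.78 to 1.01, without wild type 1, wild type 2, scs1 scs2a 1 or scs1 scs2a 2) and PRP3 (0.81 to 0.92, without wild type 1 or scs1 scs2a 2) in scs1 scs2a. In ada2b it ended those of EXPA7 (0.42 to 0.81, without any library other than ada2b 2 and those of hag1) and PRP3 (0.37 to 0.54, without wild type 1, ada2b 1, scs1 scs2a 1 or scs1 scs2a 2). Without limma's trend on mean level, all these marker calls were lost in both mutants. With upper-quartile scaling EXPA7 and PRP3 were not called in ada2b. PRP3 also missed the test there with median-ratio scaling, no filter on low values, a pseudocount of 0.1 or a replicate block. The part of the root hair markers in the PHT1;1 result was not tested.

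PHT1;2, a near copy of PHT1;1 that lies close to it on chromosome 5, had low values, with 10.4 and 5.86 in the hag1 libraries, 6.01 and 6.82 in ada2b, 14.4 and 6.58 in scs1 scs2a and 14 and 7.57 in wild type. All genotypes overlapped and no comparison called it. Of the 50-base windows of PHT1;1 transcripts, 823 of 1963 (41.9%) occur unchanged in PHT1;2, and these make up 44.5% of the windows of PHT1;2. With reads of 50 bases the split of reads between the pair is therefore uncertain, and the sources used here do not say how reads with more than 1 match were counted. PHT1;4 shares no such window with any other gene. PHT1;3, the third gene of that cluster, stayed at or under 2.95 in every library and was not called (in hag1 it was called without hag1 replicate 1, at 1.98 with an adjusted p of 0.0487).

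PAP17, a purple acid phosphatase that rises when phosphate is scarce, had 7052 and 6590.4 in the hag1 libraries, 3284 and 3416 in ada2b, 2889 and 3344 in scs1 scs2a and 2479.6 and 1984 in wild type. The hag1 libraries were above all others, ada2b and scs1 scs2a overlapped, and both lay above wild type. The rise was 1.62 ± 0.11 (adjusted p = 1.91e-05) in hag1 and 0.59 ± 0.11 (adjusted p = 0.00217) in ada2b, with 0.49 ± 0.11 (adjusted p = 0.0153) in scs1 scs2a. The last was lost without wild type replicate 2 (0.33, adjusted p = 0.0612) or scs1 scs2a replicate 2 (0.38, adjusted p = 0.121). The log2 difference from hag1 was -1.02 in ada2b (adjusted p = 0.000175) and -1.13 in scs1 scs2a (adjusted p = 0.000246). AT3G17800 overlaps the end of PAP17 by 122 bases on the opposite strand, and 4.54% of the 50-base windows of PAP17 lie in that overlap. AT3G17800 was not called in hag1 (0.18, adjusted p = 0.103) and was higher in ada2b (0.61, adjusted p = 0.000493) and scs1 scs2a (0.28, adjusted p = 0.0451).

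**Figure D3:**
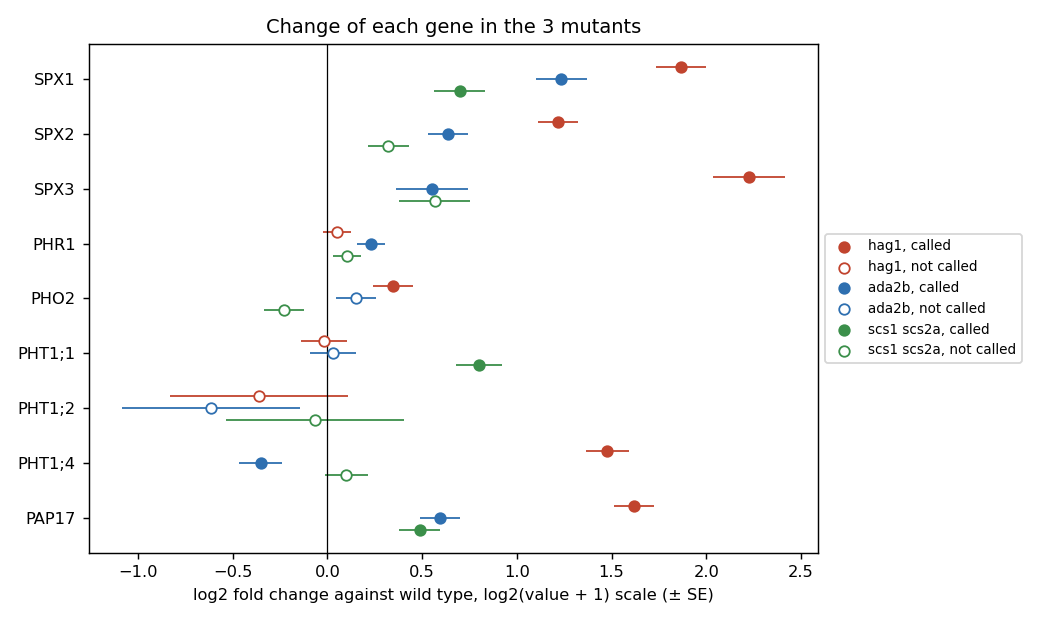
Log2 fold change against wild type (x axis, log2(value + 1) scale, bars ± SE) of the 9 genes in hag1, ada2b and scs1 scs2a; filled points passed an adjusted p of 0.05. The values of SPX1, SPX2 and PAP17 run in the order hag1, ada2b, scs1 scs2a, but of these only SPX1 was called between ada2b and scs1 scs2a. PHT1;4 is at 1.48 in hag1 and below 0 in ada2b, and PHT1;1 passed in scs1 scs2a alone.

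Between the mutants, the 9 genes lay mostly below their hag1 levels. In ada2b against hag1, 0 were called higher and 5 lower (SPX1, SPX2, SPX3, PHT1;4 and PAP17), where 21.6% of all genes were higher and 21.2% lower. In scs1 scs2a against hag1, 1 was higher (PHT1;1) and 6 were lower, the same 5 genes with PHO2, where 15.2% and 14.9% of all genes were called. These 6 lower calls and the 5 of ada2b held in all 17 alternatives. In scs1 scs2a against ada2b, 2 were higher (PHT1;1 and PHT1;4) and 2 lower (SPX1 and PHO2), where 14.8% and 14.9% of all genes were called. That count of 4 was 1 without ada2b replicate 2, and PHT1;1 was the gene that held throughout.

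A wider set of 55 other phosphate genes, also chosen with earlier results of these data known, was described beside them, and 50 of these passed the filter. Against wild type, 24 of the 50 rose in hag1 and 9 fell, with a median log2 fold change of 0.39. In ada2b 12 rose and 13 fell (median 0.10), and scs1 scs2a had 7 that rose and 6 that fell (median 0.14). These were 48% and 18% of the 50 in hag1 (21.3% and 23% of all genes), 24% and 26% in ada2b (24.7% and 23.4%), and 14% and 12% in scs1 scs2a (7.86% and 12.1%), so the ada2b shares were near those of all genes. Leaving out 1 library kept the total called between 23 and 32 in hag1 and between 20 and 25 in ada2b. In scs1 scs2a the total of 13 was 4 without scs1 scs2a replicate 2 and 6 without wild type replicate 2.

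**Figure D4:**
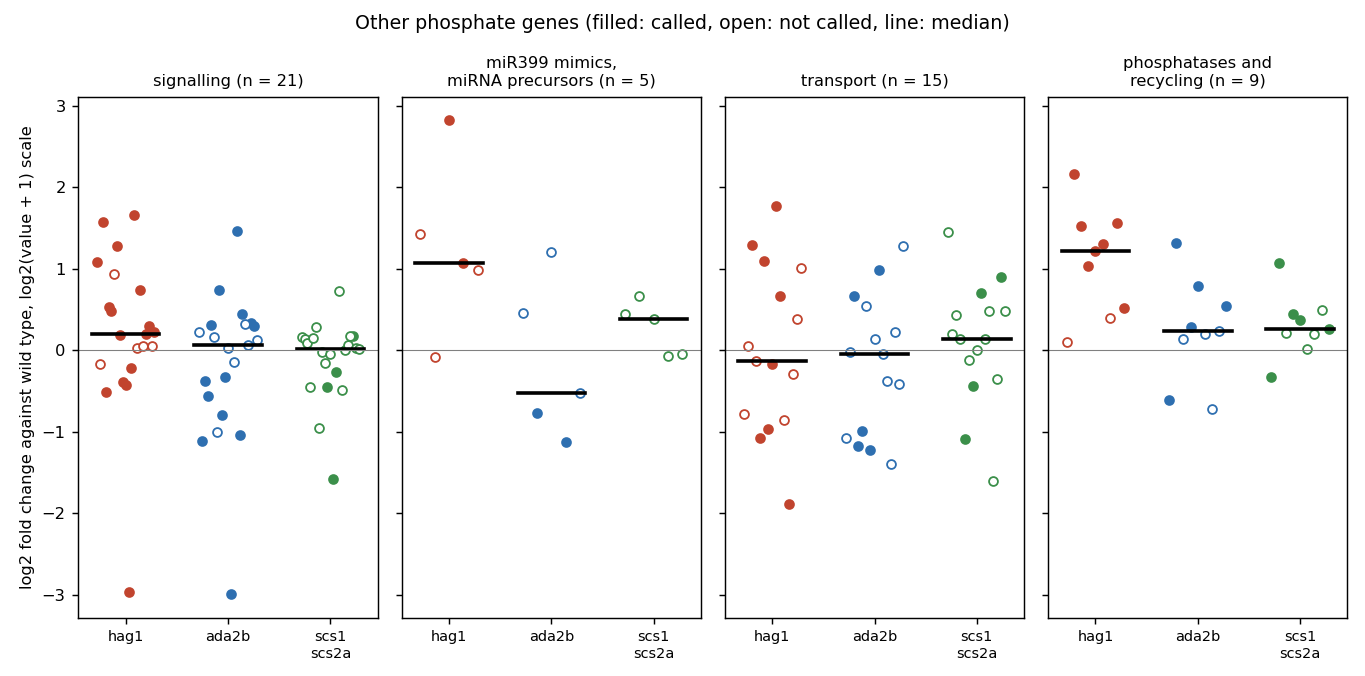
Log2 fold change against wild type (y axis, log2(value + 1) scale) of the 50 other phosphate genes tested, by role and mutant; each point is a gene, filled where called, and the line is the median. Of the 9 phosphatase and recycling genes 7 are called higher in hag1, and the transport genes lie on both sides of 0 in all 3 mutants.

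The first list holds genes that free or recycle phosphate, as PAP17 does. Of 9 in the list, hag1 had 7 that rose and 0 that fell, while ada2b and scs1 scs2a each had 4 that rose and 1 that fell. The shares that rose were 77.8% in hag1 and 44.4% in both other mutants, where 21.3%, 24.7% and 7.86% of all genes rose in hag1, ada2b and scs1 scs2a. PS2, a phosphatase gene known for induction by phosphate starvation, had 1922 and 2327 in the hag1 libraries, 1382 and 992 in ada2b, 845 and 1152 in scs1 scs2a and 460.1 and 482 in wild type. No mutant library overlapped wild type, and the rises were 2.16 ± 0.18 (adjusted p = 4.91e-05), 1.31 ± 0.18 (adjusted p = 0.000555) and 1.07 ± 0.18 (adjusted p = 0.00541) in hag1, ada2b and scs1 scs2a. PAP12, a secreted purple acid phosphatase, rose by 1.21 (adjusted p = 2.9e-05), 0.79 (adjusted p = 0.000203) and 0.38 (adjusted p = 0.0204) in the same order. The nuclease gene RNS1 (1.52, adjusted p = 0.016) and PAP25 (1.57, adjusted p = 0.0186) rose in hag1 and were not called in ada2b or scs1 scs2a. PPCK1, a kinase of phosphoenolpyruvate carboxylase, fell in ada2b (-0.61, adjusted p = 0.000514) and scs1 scs2a (-0.33, adjusted p = 0.026) and was not called in hag1 (0.10). The intracellular and secreted phosphatase gene PAP26 rose in all 3 mutants, by 0.52 (adjusted p = 0.000114) in hag1 and 0.55 (adjusted p = 8.63e-05) in ada2b, with 0.26 (adjusted p = 0.0109) in scs1 scs2a. PAP10 did too, by 1.03 (adjusted p = 4.33e-05) in hag1, 0.29 (adjusted p = 0.0209) in ada2b and 0.45 (adjusted p = 0.00804) in the scs1 scs2a double mutant. Leaving out 1 library at a time ended some of these calls (in parentheses the log2 fold change without it, and the replicates that had this effect). In hag1 it ended the calls of RNS1 (1.25 to 1.60, without wild type 2, hag1 1 or hag1 2) and PAP25 (1.20 to 1.22, without wild type 1 or hag1 2). In ada2b it ended the call of PAP10 (0.23 to 0.25, without wild type 1 or ada2b 1). In scs1 scs2a it ended the calls of PS2 (0.84, without scs1 scs2a 2), PAP12 (0.24 to 0.31, without wild type 2 or scs1 scs2a 2), PPCK1 (-0.35 to -0.24, without wild type 2, scs1 scs2a 1 or scs1 scs2a 2), PAP10 (0.34, without scs1 scs2a 2) and PAP26 (0.22 to 0.23, without wild type 2 or scs1 scs2a 2).

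Of the 15 other transport genes tested, 4 rose and 4 fell in hag1 (26.7% each, where 21.3% and 23% of all genes did). There were 2 and 3 in ada2b (13.3% and 20%, against 24.7% and 23.4% of all genes) and 2 and 2 in scs1 scs2a (13.3% each, against 7.86% and 12.1%). In hag1 these shares were near those of all genes. PHO1, which loads phosphate into the xylem of the root, had 1010.4 and 982 in the hag1 libraries, 859 and 814 in ada2b, 1500.2 and 1373 in scs1 scs2a and 1889.8 and 2003 in wild type. All mutant libraries were below both wild type libraries, and the log2 fold changes of PHO1 were -0.96 ± 0.06 (adjusted p = 1.85e-05) in hag1 and -1.22 ± 0.06 (adjusted p = 4.21e-06) in ada2b, with -0.44 ± 0.06 (adjusted p = 0.0028) in scs1 scs2a. Its relative PHO1;H1 was higher in hag1 (1.30, adjusted p = 0.000197) and ada2b (0.66, adjusted p = 0.00595). G3Pp1, of the glycerol-3-phosphate permease family, had 4263 and 4293 in the hag1 libraries, 2471 and 2485 in ada2b, 1811 and 2293 in scs1 scs2a and 1385 and 1136 in wild type, the same order of genotypes as SPX1. PHT4;1, a chloroplast phosphate transporter, fell in all 3 mutants, with -1.08, -0.99 and -1.09 in hag1, ada2b and scs1 scs2a (largest adjusted p = 0.000631). The transporter gene PHT1;5 rose in hag1 (1.09, adjusted p = 0.0145), PHT1;9 fell in ada2b (-1.17, adjusted p = 0.0215), and G3Pp2 rose in scs1 scs2a (0.90, adjusted p = 0.0392). AT4G11810, at 0.01 and 0.98 in hag1 and 3.31 and 5.31 in wild type, was also called lower (adjusted p = 0.0353). Some of these calls rested on single libraries: leaving out 1 library in hag1 ended the calls of PHT1;5 (0.70 to 1.09, without wild type 2, hag1 1 or hag1 2) and AT4G11810 (-2.16 to -1.39, without wild type 1, wild type 2, hag1 1, ada2b 1 or ada2b 2). In ada2b it ended the call of PHT1;9 (-1.22 to -1.13, without wild type 1, wild type 2, ada2b 1 or ada2b 2). In scs1 scs2a it ended the call of G3Pp2 (0.76 to 1.04, without wild type 1, wild type 2, scs1 scs2a 1 or scs1 scs2a 2).

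Of the signalling list of 21 genes, 11 rose and 5 fell in hag1 (52.4% and 23.8%, against 21.3% and 23% of all genes). In the ada2b mutant 6 rose and 7 fell (28.6% and 33.3%, against 24.7% and 23.4%), and in scs1 scs2a 1 rose and 3 fell (4.76% and 14.3%, against 7.86% and 12.1%). The share that fell in hag1 and the share that rose in ada2b were near those of all genes. HRS1, a repressor that joins nitrate and phosphate responses, had 964 and 899 in the hag1 libraries, 224 and 255 in ada2b, 316 and 349 in scs1 scs2a and 289.7 and 336 in wild type. It followed PHT1;4 in that it rose in hag1 (1.58 ± 0.10, adjusted p = 1.91e-05), fell in ada2b (-0.38 ± 0.10, adjusted p = 0.0153) and overlapped wild type in scs1 scs2a. WRKY42, a known repressor of PHO1 in Arabidopsis, had 2.10 and 2.94 in the hag1 libraries, 3.003 and 1.94 in ada2b, 8.63 and 7.60 in scs1 scs2a and 29.2 and 23.6 in wild type, with all mutant libraries below wild type and log2 changes of -2.96 (adjusted p = 0.000255), -2.99 (adjusted p = 0.000245) and -1.58 (adjusted p = 0.0159) in hag1, ada2b and scs1 scs2a. ZAT6, a zinc finger factor of the root phosphate response, was higher in hag1 (1.66, adjusted p = 0.00119) and ada2b (1.46, adjusted p = 0.00229). AT3G01310, a kinase that makes the inositol pyrophosphates bound by SPX proteins, fell in all 3 mutants, with -0.38, -0.33 and -0.44 in hag1, ada2b and scs1 scs2a (largest adjusted p = 0.00313). AT5G15070, another gene for such a kinase, went the other way in hag1 (0.74, adjusted p = 0.000228) and ada2b (0.44, adjusted p = 0.0032). Its mean was 256 in both scs1 scs2a and wild type. LPR1, a ferroxidase of root tip phosphate sensing, fell in hag1 (-0.51, adjusted p = 0.0259) and ada2b (-0.56, adjusted p = 0.0161). AT1G68670 rose in hag1 (1.28) and ada2b (0.73), and AT3G24120 fell in hag1 (-0.43), with an adjusted p of at most 0.00902. In ada2b the malate channel gene ALMT1 (-1.11, adjusted p = 0.012) and the factor gene WRKY75 (-1.04, adjusted p = 0.0249) fell. PDR2, a P5-type ATPase that acts with LPR1, rose in all 3 mutants, with 0.30 (adjusted p = 0.000775) in hag1 and 0.33 (adjusted p = 0.000466) in ada2b, with 0.18 (adjusted p = 0.0238) in scs1 scs2a. UNE16 (AT4G13640) fell in hag1 (-0.21, adjusted p = 0.0359) and scs1 scs2a (-0.27, adjusted p = 0.0271) and was at -0.14 in ada2b (adjusted p = 0.124). Single libraries mattered here too: leaving out 1 in hag1 ended the calls of LPR1 (-0.56 to -0.42, without wild type 1, hag1 1 or hag1 2), AT3G24120 (-0.34, without wild type 1 or hag1 2) and UNE16 (-0.26 to -0.16, without wild type 1, wild type 2, hag1 1 or hag1 2). In ada2b it ended the calls of HRS1 (-0.29 to -0.28, without wild type 2 or ada2b 1), LPR1 (-0.48 to -0.36, without wild type 1 or ada2b 2), ALMT1 (-0.95 to -0.82, without wild type 2 or ada2b 1) and WRKY75 (-1.18 to -0.78, without wild type 1, ada2b 1 or ada2b 2). In scs1 scs2a it ended the calls of WRKY42 (-1.73 to -1.43, without wild type 1, wild type 2, scs1 scs2a 1 or scs1 scs2a 2), PDR2 (0.17 to 0.19, without wild type 1, wild type 2, scs1 scs2a 1 or scs1 scs2a 2) and UNE16 (-0.32 to -0.22, without wild type 1, wild type 2, scs1 scs2a 1 or scs1 scs2a 2).

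Levels between genes can be set side by side only per length of transcript. In wild type the mean normalised counts per 1000 bases of exon ran from PAP17 (1346) and SPX1 (1221) through PHO2 (779), PHT1;1 (601), PHR1 (516), SPX2 (467) and PHT1;4 (398) to SPX3 (62.3) and PHT1;2 (5.76). Over the 8 libraries, which share their genotype structure, Pearson's r of log2(value + 1) was 0.98 between SPX1 and SPX2, 0.97 between SPX3 and PAP17 and 0.91 between SPX3 and PHT1;4, and it was 0.03 between PHR1 and PAP17 and -0.19 between PHT1;1 and PHT1;4. Among 8866 genes with a symbol and a mean of 10 or more, the 3 closest to each gene were PPa1, PAP12 and GAUT4 for SPX1 (r of 0.995 to 0.991), SLY1, S6K2 and SRG3 for SPX2 (0.996 to 0.991), and ROC3, CDPK1 and MGD2 for SPX3 (0.988 to 0.985). They were FBH4, EXL4 and bZIP3 for PHT1;4 (0.994 to 0.991), QQT2, GDPD5 and SNRK2.10 for PAP17 (0.993 to 0.990), and RSL2, PPC3 and ADF11 for PHT1;1 (0.949 to 0.940). For PHO2 they were AREB3, nPAP and GASA5 (0.982 to 0.961), for PHR1 COQ3, SWAP70 and PUP8 (0.968 to 0.942), and for PHT1;2 GLR1.3, TAS1B and BAG5 (0.901 to 0.854). These r describe 8 libraries of 4 genotypes and carry no test.

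Because several of these genes act mainly in roots, the tissue markers were set beside them. Of 22 root markers, hag1 had 2 that rose and 3 that fell against wild type, ada2b 3 and 7, and scs1 scs2a 3 and 5. These are 9.09% and 13.6% in hag1 (21.3% and 23% of all genes), 13.6% and 31.8% in ada2b (24.7% and 23.4%), and 13.6% and 22.7% in scs1 scs2a (7.86% and 12.1%). PYK10, which makes up most of the root sum, had 82448 and 63579 in the hag1 libraries, 50809 and 48402 in ada2b, 55109 and 54441 in scs1 scs2a and 43806 and 42259.9 in wild type and rose in hag1 (0.75 ± 0.12, adjusted p = 0.00116). The aquaporin TIP2;3 (-2.45, -2.43 and -1.15 in hag1, ada2b and scs1 scs2a) and the sodium transporter HKT1 (-1.92, -2.79 and -1.04) fell in all 3 mutants (adjusted p of at most 0.00949), while the Casparian strip genes CASP1 to CASP4 were not called and CASP5 rose in hag1 (1.88, adjusted p = 0.00723) and ada2b (1.38, adjusted p = 0.0264). SCR also fell in hag1 (-0.43, adjusted p = 0.000443). The other falls called in ada2b were WOX5 (-2.04, adjusted p = 0.00136), BGLU21 (-1.04, adjusted p = 0.000413), BGLU22 (-0.83, adjusted p = 0.0486), SHR (-0.65, adjusted p = 0.000562) and SCR (-0.28, adjusted p = 0.00425). Besides TIP2;3 and HKT1, both scs1 scs2a libraries lay below both wild type libraries for WOX5 (5.76 and 3.78 against 17.4 and 17.1), BGLU21 (472 and 564 against 886 and 846), SCR and SHR. They lay above both for 13 of the 22 root markers. The matching share of all genes was not worked out. Values with single libraries left out are not given for SCR, WOX5, BGLU21, BGLU22 and SHR. Leaving out 1 library at a time had these effects: in hag1 it ended the call of CASP5 (1.53, without hag1 1). In ada2b it ended the call of CASP5 (0.83 to 1.45, without wild type 1, ada2b 1 or ada2b 2). In scs1 scs2a it ended the call of HKT1 (-1.07 to -1.01, without scs1 scs2a 1 or scs1 scs2a 2). Of 13 green markers, 0 rose in any mutant, 11 fell in hag1 and 10 in ada2b, with 9 in scs1 scs2a, where 23%, 23.4% and 12.1% of all genes fell. The part of tissue makeup in the changes of the 9 genes was not tested.

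**Figure D5:**
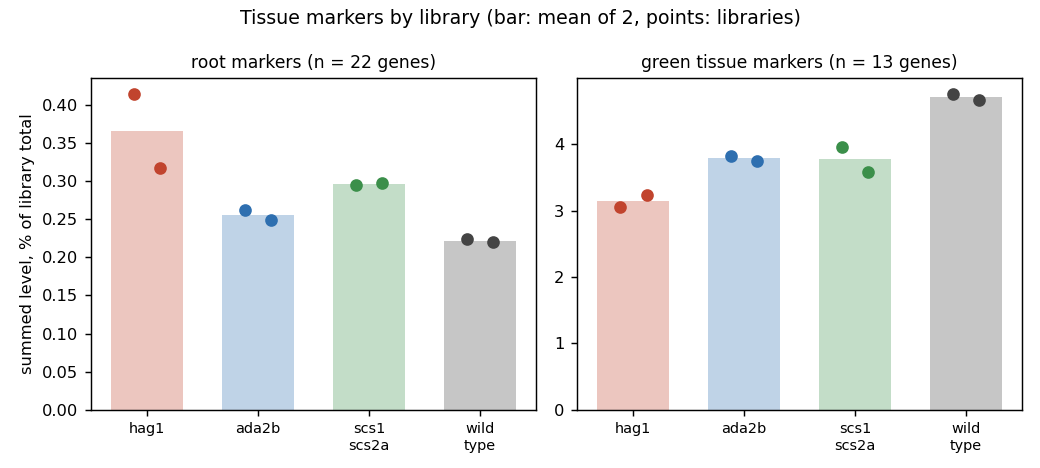
Summed level of 22 root markers (left) and 13 green tissue markers (right) as a percent of the library total (y axes, from 0); points are libraries and bars the mean of 2. The root sum is mostly PYK10 and is highest in hag1, whereas the mean log2 level of the 22 root markers, not plotted, was 7.73 and 7.23 in hag1 and 7.51 and 7.62 in wild type. The green sum is lowest in hag1, and all mutant libraries lie below wild type for the green sum.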

How the data were processed

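RNA-seq libraries of 12-day-old seedlings (8 libraries, 4 genotypes, 2 each, grouped by the labels' titles and genotypes) had been sequenced as 50 bp single-end reads, per the labels' protocols. The deposited table holds 1 normalised count signal per gene and library, which is not a whole number. HISAT2, edgeR and the build TAIR10, with no versions, are named for the authors' work, per the submitters' processing notes. The sources used here do not name the counting tool, the annotation or the strand setting. Genes on the opposite strand also overlap other named genes, among them PPCK1 (472 bases), NLA (278 and 49), PHT4;1 (236), PAP10 (177) and PYK10 (138). Reads of both strands may be mixed there. No count model was run on these values, and 0 columns went unused.

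Values under 1e-06 were set to 0. Tests ran in R 4.3.3 with limma 3.58.1 on log2(value + 1), for genes with a value of at least 1 in at least 2 libraries. One model with genotype as its term covered all 8 libraries (4 residual and 4.42 prior degrees of freedom, trend on mean level), with two-sided contrasts and Benjamini-Hochberg adjustment at 0.05 over all 25459 genes. With 2 libraries per genotype the precision is limited. The fit was run on simulated counts with 1 fixed spread that was not estimated from these libraries. That run checks the code and does not give error rates for the genes reported here. The 9 genes, the lists and the markers were chosen with earlier results of these data known. Named other genes are up to 3 of the largest called rises and falls per list and mutant with no overlap of libraries, plus SPX4, PHL1, PHO1, PHT1;3, IPS1 and AT4. NLA, CASP5, SCR, SHR, WOX5, BGLU21, BGLU22 and the root hair markers, and values of a named gene in mutants for which the rule did not name it, were added after their values were seen. The results of the alternatives given below do not cover SCR, SHR, WOX5, BGLU21 and BGLU22. From the 10804 genes with a symbol, likeness used those with a mean of at least 10. Locus identifiers matched the TAIR10.1 reference for all 101 listed genes, and loci without a symbol there are not named. Sequence was read with Python 3.11.15; sites allowed at most 4 mismatches to miR399. Alternatives were other scalings, pseudocounts, filters, no trend, 2 genotypes alone, a replicate block and each library left out.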

Additional observations from a re-analysis of the deposited data

How the results depend on the processing

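The 9 genes gave 54 tests in 6 comparisons, of which 31 passed; 22 of these passed in all 17 alternatives, and no called value changed sign. Without limma's trend on mean level, 3 of the 9 genes were called in ada2b against wild type, 1 in scs1 scs2a against wild type and 1 in scs1 scs2a against ada2b; the totals over all genes were 2757 and 5001 in the last 2 comparisons, and 6 other phosphate genes were called in scs1 scs2a against wild type. With a filter of at least 10 in at least 2 libraries, 5 of the 9 were called in scs1 scs2a against wild type. The causes were not tested. Of 78 called values of other named genes, 45 were called in all alternatives, and none of them changed sign.

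Leaving out 1 library at a time gave 3 to 5 of the 9 genes in ada2b against wild type, 1 to 5 in scs1 scs2a against wild type and 1 to 4 in scs1 scs2a against ada2b. Over all genes it gave 1683 to 5161 calls in scs1 scs2a against wild type, 4339 to 7335 in scs1 scs2a against hag1 and 3974 to 7679 in scs1 scs2a against ada2b. Among the other phosphate genes it gave 4 to 14 in scs1 scs2a against wild type, 19 to 27 in ada2b against hag1 and 10 to 18 in scs1 scs2a against ada2b.

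Reversals were seen for values that were not called. Under median-ratio and upper-quartile scaling PHT1;1 in ada2b against wild type was -0.019. With 1 library left out, the log2 fold change ranged for PHR1 from -0.046 to 0.15 in hag1 against wild type, from -0.047 to 0.15 in scs1 scs2a against hag1. For PHT1;1 it ranged from -0.22 to 0.18 in hag1 against wild type, from -0.089 to 0.15 in ada2b against wild type, from -0.15 to 0.24 in ada2b against hag1. For PHT1;2 it ranged from -0.76 to 0.045 in hag1 against wild type, from -0.58 to 0.45 in scs1 scs2a against wild type, from -0.62 to 0.11 in ada2b against hag1, from -0.22 to 0.81 in scs1 scs2a against hag1. For PHT1;4 it ranged from -0.020 to 0.22 in scs1 scs2a against wild type. For SPX3 it ranged from -0.25 to 0.28 in scs1 scs2a against ada2b. For IPS1 it ranged from -0.42 to 0.26 in hag1 against wild type. For SPX4 it ranged from -0.065 to 0.16 in hag1 against wild type. For AT4 it ranged from -0.22 to 0.071 in scs1 scs2a against wild type.

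Over all tested genes, the correlation of deviations between libraries with the same replicate number was -0.05 to 0.06 for the 6 pairs of genotypes. A value over all genes cannot show whether some genes shifted together in libraries of the same number. What the numbers stand for was not tested. With replicate as a block, 6, 6 and 3 of the 9 genes were called in hag1, ada2b and scs1 scs2a against wild type, and 5, 7 and 4 in ada2b against hag1, scs1 scs2a against hag1 and scs1 scs2a against ada2b; it lost and gained 0 calls among the 9. With 2 libraries a genotype and PHT1;2 under 15 in every library, small changes of low genes were not detectable.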
